A study of Mus musculus with 4 samples.

Results

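The vesicular glutamate transporters load glutamate into synaptic vesicles, and the mouse genome encodes 3 of them: Slc17a7 (VGLUT1), Slc17a6 (VGLUT2) and Slc17a8 (VGLUT3). All 3 were taken by gene name from a table of 20793 gene rows, 1 row each, with none left out for its values. The family itself was chosen with earlier results of these data known. The table describes brain RNA of newborn mice at postnatal day 1, sequenced in 4 libraries, 2 described as WT and 2 as CIC knockout (CIC KO), with the letters A and B in each group. CIC KO brains carry the genotype Nes-Cre;CIClox/lox, in which Cre recombinase under Nestin control acts on a loxP-flanked Cic gene in neural progenitors and their progeny, so that blood, vessel and microglial cells keep it. For the WT brains the genotype field reads Nes-Cre;CIC+/+ whereas their titles read as Cre-negative animals with the L_L allele, so it is not settled whether the controls carry Cre. CIC (capicua) is a transcriptional repressor that acts downstream of receptor tyrosine kinase and ERK signalling, and the study asked about its role in brain development.

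Any neuron that releases glutamate needs one of these proteins, and the vesicular proton pump supplies the force that drives them. Slc17a7 is the transporter of most projection neurons of cortex and hippocampus and of cerebellar granule cells, and it comes up as those cells mature after birth. Slc17a6 serves thalamus, hypothalamus, midbrain and brainstem. Slc17a8 is found in scattered neurons that also release another transmitter, such as serotonin neurons of the raphe, striatal cholinergic interneurons and some Cck-expressing interneurons. The balance of Slc17a7 and Slc17a6 in brain RNA is therefore commonly read as cortical against subcortical glutamatergic neurons. Because Slc17a7 comes up after birth, the balance in newborn brain can also vary with maturity, and region and maturity were not separated here.

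Slc17a7 and Slc17a6 are the pair that the results below turn on, and both lie on chromosome 7 (mm9, 52419291 to 52431509 and 58877200 to 58926496), 6.45 Mb apart. Slc17a8 lies on chromosome 10 (mm9, 89036765 to 89083994). No other row of the deposited table overlapped any of the 3 loci. The transcripts of the 3 genes shared 0 stretches of 30 bases in any pairing (GENCODE M21), so a read of that length belongs to 1 of them. The 250 bases before the annotated start of the pair are shown because they are the regulatory sequence nearest to each gene, with every CG dinucleotide in capitals (RefSeq, GRCm38.p6, plus strand, chr7:45163671-45163920 for Slc17a7 and chr7:51621580-51621829 for Slc17a6).
Slc17a7: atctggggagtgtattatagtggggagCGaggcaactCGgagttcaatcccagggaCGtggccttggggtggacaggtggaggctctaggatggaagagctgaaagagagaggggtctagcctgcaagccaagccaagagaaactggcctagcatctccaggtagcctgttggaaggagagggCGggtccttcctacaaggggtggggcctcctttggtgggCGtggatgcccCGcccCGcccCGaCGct
Slc17a6: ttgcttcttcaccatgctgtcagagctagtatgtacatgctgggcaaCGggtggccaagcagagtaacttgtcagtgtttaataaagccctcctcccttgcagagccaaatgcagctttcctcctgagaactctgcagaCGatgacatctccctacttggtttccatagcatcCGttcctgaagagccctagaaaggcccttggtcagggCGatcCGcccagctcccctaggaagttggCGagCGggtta

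The Slc17a7 stretch is 61.2% G and C with 9 CG dinucleotides, and the Slc17a6 stretch is 53.2% with 7. The medians over all 32841 such stretches were 52.4% and 6. The letters bound by CIC (TCAATGAA, TCAATGGA, TGAATGAA or TGAATGGA on either strand) are in neither, nor in the stretch at the start of Slc17a8 or at the inner starts that RefSeq gives for Slc17a6 and Slc17a8. Of all stretches 3.19% hold one of these octamers. The E-box CAGATG, which neuronal bHLH factors bind, is absent at the 3 gene starts and present once at each of the inner starts of Slc17a6 and Slc17a8, against 14.4% of all stretches. With no octamer in any of the 5, no octamer overlaps an E-box there, and a match or its absence says nothing about binding.

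Values are FPKM (fragments scaled by transcript length and by the mapped total of the library), a unit scaled by length that allows levels of different genes to be set side by side. Column sums ran from 440005 to 449559. Cic itself had 51.3 and 56.4 FPKM in the WT libraries against 19.1 and 22.2 FPKM in the CIC KO libraries A and B. CIC KO B stood apart from the other libraries in markers of brain region and of blood, which are given after the transporter values. Groups were compared with limma on log2(FPKM + 1) over the 12703 rows with a mean of 1 FPKM or more, and a gene is called at an adjusted p under 0.05. Cic itself was not called (log2 difference -1.34 ± 0.12, SE; limma's adjusted p = 0.213). The lack of a call is therefore not evidence that a gene did not change. The labels do not state that the libraries are separate animals, so p-values measure the spread between these samples only.

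Slc17a7 was the most abundant transporter in both WT libraries and in CIC KO A, and not in CIC KO B. It stood at 45.4 FPKM in WT A, 50.3 in WT B, 42.2 in CIC KO A and 10.4 in CIC KO B. Both knockout libraries were below both WT libraries, CIC KO A narrowly and CIC KO B by a wide margin. The WT mean was 47.8 ± 3.45 FPKM and the CIC KO mean 26.3 ± 22.5 FPKM (SD, n = 2 each), so the knockout pair spanned most of the range seen.

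The log2 difference of Slc17a7 between CIC KO and WT was -1.13 ± 0.64 (SE; 95% interval -2.81 to 0.55), with limma's adjusted p of 0.553. Against the WT mean, the log2 difference was -0.18 for CIC KO A alone and -2.09 for CIC KO B alone, which held 4.58-fold less than WT on the FPKM scale. Without CIC KO replicate B the difference was not called (limma's adjusted p = 0.41), and without CIC KO replicate A it was (adjusted p = 0.00213). The latter fit takes its spread from the WT pair, treats CIC KO B as if it varied to the same degree, and called 33.9% of all tested genes.

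Slc17a6 showed the opposite arrangement. It had 15.2 FPKM in WT A, 14.5 in WT B, 16.6 in CIC KO A and 42.1 in CIC KO B. The 3 former libraries lay close together, and CIC KO B had 2.84 times the WT mean. In groups, WT had 14.8 ± 0.488 FPKM and CIC KO 29.4 ± 18.04 FPKM (SD, n = 2 each).

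For Slc17a6 the log2 difference was 0.80 ± 0.43 (SE; 95% interval -0.34 to 1.95), with limma's adjusted p of 0.548. CIC KO A was 0.16 and CIC KO B 1.45 above the WT mean on the log2(FPKM + 1) scale. As for Slc17a7, leaving out CIC KO B gave no call (limma's adjusted p = 0.38) and leaving out CIC KO A gave one (adjusted p = 0.0029).

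Slc17a8, the transporter of co-releasing neurons, was low throughout. It had 0.600 FPKM in WT A, 0.445 in WT B, 0.749 in CIC KO A and 0.701 in CIC KO B. Both knockout libraries were above both WT libraries and close to each other, unlike for the other members. The WT mean was 0.523 ± 0.109 FPKM and the CIC KO mean 0.725 ± 0.0342 FPKM (SD, n = 2 each). It did not reach the minimum mean of 1 FPKM. In the fit with no filter on low values its log2 difference was 0.18 ± 0.07 (SE; 95% interval -0.06 to 0.43), with limma's adjusted p of 0.602.

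**Figure D1:**
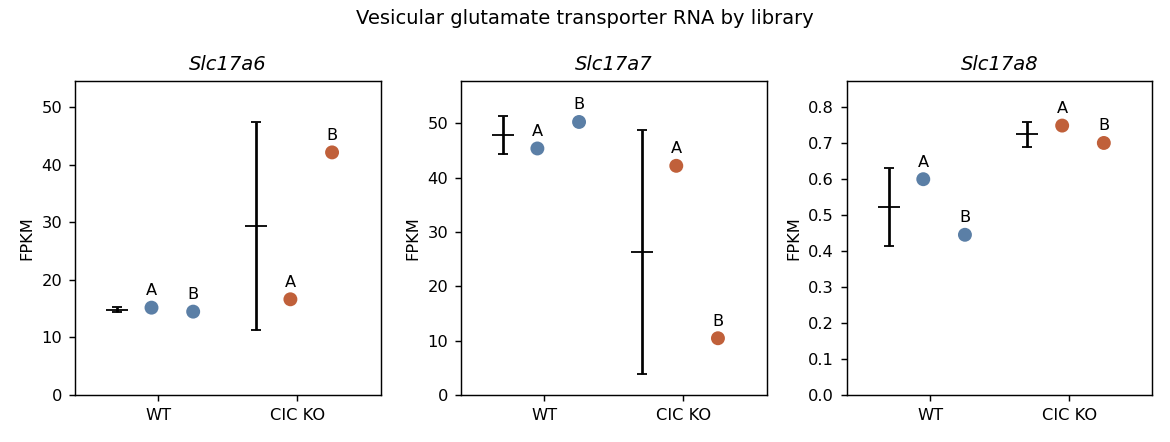
FPKM of Slc17a6, Slc17a7 and Slc17a8 in each library; points are libraries marked A or B, and the black bar beside each pair is the mean with its SD (n = 2). CIC KO B is at 42.1 FPKM for Slc17a6 and 10.4 FPKM for Slc17a7, while CIC KO A is near WT for both.

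Of the 2 members that passed the filter, 0 were called by limma, where 6 of 12703 rows (0.0472%) were called. At an unadjusted p under 0.05 the members also numbered 0, against 1290 rows (10.2%). All 3 members had groups that did not overlap, Slc17a6 and Slc17a8 on the higher side and Slc17a7 on the lower. Over every row of the table, 22.8% had both knockout libraries above both WT libraries and 15.7% had both below, so that arrangement is common here. Shares of all rows, here and below, include rows under the filter. The same shares over tested rows alone were not computed. The gap between the knockout libraries was less common. There were 98 rows (0.771%) that differed between CIC KO A and CIC KO B by as much as Slc17a6, and 45 rows (0.354%) that did so by as much as Slc17a7. The shift of CIC KO A from the WT mean was matched or exceeded by 31.1% of tested rows for Slc17a6 and by 26.8% for Slc17a7.

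**Figure D2:**
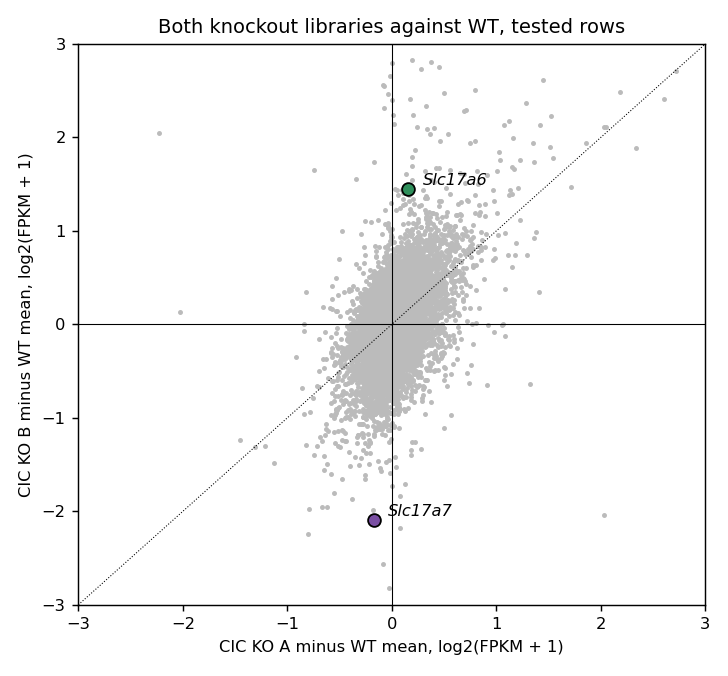
Log2(FPKM + 1) minus the WT mean in CIC KO A (x axis) and CIC KO B (y axis), 1 grey point per tested row, with equal values on the dotted line; both axes share the WT libraries, and 23 of the 12703 rows lie outside the axes. Slc17a6 (0.16, 1.45) and Slc17a7 (-0.18, -2.09) lie near the vertical axis, at opposite ends of it.

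The sum of the 3 transporters varied less than its make-up. Summed FPKM was 61.1 in WT A, 65.2 in WT B, 59.5 in CIC KO A and 53.2 in CIC KO B. Slc17a7 made up 74.2% and 77.1% of that sum in the WT libraries, 70.9% in CIC KO A and 19.6% in CIC KO B. Slc17a6 made up 24.8% and 22.2% in WT, 27.9% in CIC KO A and 79.1% in CIC KO B. CIC KO B thus had the reverse order of the pair, with 4.04 times as much Slc17a6 as Slc17a7, whereas the other libraries had 2.54 to 3.48 times as much Slc17a7 as Slc17a6. Slc17a8 stayed between 0.683% and 1.32% of the sum.

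The log2 ratio of Slc17a7 to Slc17a6, both with 1 FPKM added, was 1.63 ± 0.15 in WT and -0.31 ± 2.27 in CIC KO (SD, n = 2 each). The difference of -1.94 had an exact permutation p of 0.33 (two-sided), the smallest that 2 against 2 can give. The summed level differed by -6.76 FPKM (63.2 ± 2.85 in WT and 56.4 ± 4.45 in CIC KO; exact permutation p = 0.33, two-sided, n = 2 each). In bulk RNA, fewer cells of a type and less RNA per cell cannot be told apart.

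**Figure D3:**
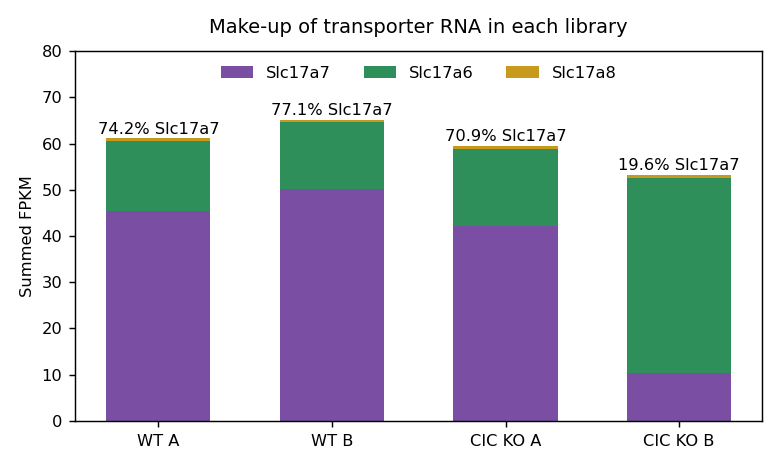
Stacked bars of the FPKM of the 3 transporters in each library, with the percentage of Slc17a7 written above. Bar heights run from 53.2 to 65.2 FPKM, and Slc17a7 makes up 70.9% to 77.1% in 3 libraries and 19.6% in CIC KO B.

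Genes of the neurons that use each transporter were read from lists chosen with earlier results of these data known. The cortical glutamatergic list had 12 genes, all measured, and limma called 0 of them in either direction. At an unadjusted p under 0.05 there were 7, against 10.2% of all tested rows. Both knockout libraries were below both WT libraries for 10 of the 12, where 15.7% of all rows were, and above for 1, Slc30a3, a vesicular zinc transporter. The median log2 difference was -0.71, against 0.02 over all tested rows, with -0.46 in CIC KO A and -1.04 in CIC KO B. CIC KO A alone was below both WT libraries for 10 of the 12 genes, where 27.7% of all rows were, and CIC KO B was the lowest library for 9, where 26.4% were.

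Within that list Slc17a7 was matched by Nrgn and not by most others. Nrgn, the postsynaptic calmodulin-binding protein neurogranin, had 143 and 139 FPKM in WT, 139.7 in CIC KO A and 46.1 in CIC KO B, so that again CIC KO B alone was low. Neurod6, a bHLH factor of cortical projection neurons, was lower in both knockout libraries, at 206 and 214 FPKM in WT, 150.5 in CIC KO A and 88.3 in CIC KO B. Mef2c, a factor of maturing excitatory neurons, had 132 and 137 FPKM in WT, 79.99 in CIC KO A and 50.6 in CIC KO B. Neurod2, a close relative of Neurod6, had 85.1 and 86.1 FPKM in WT, 59.8 in CIC KO A and 49.9 in CIC KO B. Limma's adjusted p for these 4 genes ran from 0.417 (Mef2c and Neurod2) to 0.576 (Nrgn).

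Genes of subcortical glutamatergic neurons were highest in CIC KO B, as Slc17a6 was. Of the 20 listed thalamic, hypothalamic and midbrain or hindbrain genes, CIC KO B was the highest library for 5 of 6, 7 of 8 and 6 of 6, where 36.3% of all rows had it highest. Limma called 0 of them among the 11 rows that passed the filter. At an unadjusted p under 0.05 there were 1 thalamic, 2 hypothalamic and 0 midbrain or hindbrain genes, against 10.2% of all tested rows. Several passed the filter only through CIC KO B. CIC KO A was above both WT libraries for 5 of 6 thalamic, 6 of 8 hypothalamic and 1 of 6 midbrain or hindbrain genes, where 35.4% of all rows were.

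The thalamic factor Tcf7l2 had 2.14 and 2.34 FPKM in WT, 5.17 in CIC KO A and 56.0 in CIC KO B. Lhx9, a LIM homeobox factor of thalamus and midbrain, had 2.71 and 2.94 FPKM in WT, 3.53 in CIC KO A and 15.5 in CIC KO B. Rora, a nuclear receptor of sensory thalamus, had 1.62 and 1.85 FPKM in WT, 2.18 in CIC KO A and 5.70 in CIC KO B. Prkcd, a protein kinase C gene of adult thalamic relay neurons, did not share this order, with 12.1 and 12.2 FPKM in WT, 10.1 in CIC KO A and 10.8 in CIC KO B. Summed over the 6 thalamic genes, the level was 19.9 and 20.5 FPKM in WT, 23.5 in CIC KO A and 97.3 in CIC KO B.

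Hypothalamic genes summed to 3.08 and 1.95 FPKM in WT, 7.76 in CIC KO A and 32.2 in CIC KO B. Otp, a homeobox factor of neuroendocrine hypothalamus, had 0.370 and 0 FPKM in WT, 2.19 in CIC KO A and 6.18 in CIC KO B. Barhl1, of mammillary neurons and cerebellar granule cells, had 0.0114 and 0.524 FPKM in WT, 0.0835 in CIC KO A and 11.4 in CIC KO B. Fezf1, of ventromedial hypothalamus, was highest in CIC KO A instead, with 2.02 and 0.842 FPKM in WT, 4.08 in CIC KO A and 2.95 in CIC KO B.

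Midbrain and hindbrain genes other than Barhl2 were close to 0 outside CIC KO B. Pou4f1, a POU factor of midbrain, habenular and sensory neurons, had 0.0406 and 0.0422 FPKM in WT, 0.0249 in CIC KO A and 7.81 in CIC KO B. Barhl2, a homeobox factor of midbrain and diencephalon, had 1.33 and 1.22 FPKM in WT, 1.55 in CIC KO A and 4.15 in CIC KO B. Tlx3, of hindbrain and spinal sensory neurons, had 0 and 0.0455 FPKM in WT, 0 in CIC KO A and 1.95 in CIC KO B. The 6 genes of the list summed to 1.37 and 1.35 FPKM in WT, 1.58 in CIC KO A and 17.7 in CIC KO B.

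Hox genes, which mark hindbrain and spinal cord and are silent further forward, gave the same picture. All 12 listed were highest in CIC KO B, where 36.3% of all rows had it highest. Only 2 of them, Hoxa5 and Hoxb5, passed the filter, and only through CIC KO B. Limma called 0 of these 2, with 0 at an unadjusted p under 0.05 (10.2% of all tested rows). They summed to 0.00931 and 0.156 FPKM in WT, 0.0679 in CIC KO A and 29.5 in CIC KO B. Hoxa5 had 0 and 0.0389 FPKM in WT, 0.0189 in CIC KO A and 6.09 in CIC KO B, and Hoxb5 had 0 and 0.0184 FPKM in WT, 0 in CIC KO A and 5.38 in CIC KO B. Hoxb3 reached 3.55 FPKM in CIC KO B and at most 0.00931 elsewhere, and Hoxd3 was listed at 0 in the other 3 libraries and at 3.12 FPKM in CIC KO B. The label "brain" thus goes with RNA nearly without Hox transcripts in 3 libraries and with a range of them in the fourth. The sources used here do not say whether the region collected differed between libraries. The 7 rows of blood genes, mostly globin copies whose reads can be split among them, summed to 287 and 188 FPKM in WT, 99.2 in CIC KO A, where 4 of them were listed at 0, and 1197 in CIC KO B. The part of these marker levels in the transporter values was not tested.

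**Figure D4:**
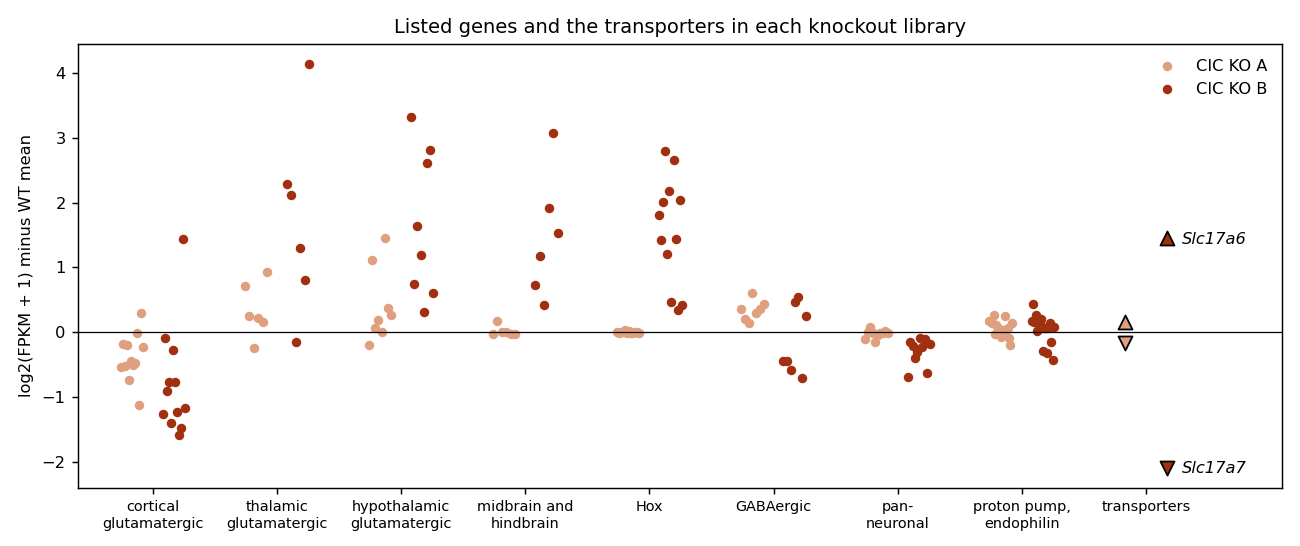
Log2(FPKM + 1) minus the WT mean for each listed gene in CIC KO A (light) and CIC KO B (dark), by list, with Slc17a6 and Slc17a7 at the right. Thalamic, hypothalamic, midbrain, hindbrain and Hox genes spread upward in CIC KO B, cortical genes lie mostly below 0 in both libraries, and pan-neuronal and proton pump genes lie closer to 0 in both.

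Markers of neurons in general differed less from WT in CIC KO B than Slc17a6 and Slc17a7 did. The 10 pan-neuronal genes summed to 3323 and 3284 FPKM in WT, 3249 in CIC KO A and 2781 in CIC KO B. The lowest library was CIC KO B for all 10, where 26.4% of all rows had it lowest. Their median log2 difference was -0.11, with -0.02 in CIC KO A and -0.22 in CIC KO B. Tubb3, the neuronal beta-tubulin, had 1434 and 1394 FPKM in WT, 1395 in CIC KO A and 1249 in CIC KO B. Dcx, of migrating young neurons, had 241 and 253 FPKM in WT, 228 in CIC KO A and 152 in CIC KO B, Stmn2, a microtubule regulator, 931 and 901, 906 and 780, and Map2, of dendrites, 224 and 234, 226 and 173. Limma called 0 of the 10, and 0 had an unadjusted p under 0.05, against 10.2% of all tested rows.

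The proton pump that energises the transporters, with the chloride and proton exchanger Clcn3 and the endophilins, one of which binds VGLUT1, made up a list of 17 genes. All were tested and 0 called by limma, with 2 at an unadjusted p under 0.05, against 10.2% of all tested rows. The groups were apart with CIC KO higher for 11 and lower for 3 (22.8% and 15.7% of all rows), and the median log2 difference was 0.10, against 0.02 over all tested rows. Atp6v0c, the subunit of the proton-conducting ring, had 603.04 and 620.5 FPKM in WT and 734 in each knockout library (log2 difference 0.26 ± 0.09, SE; limma's adjusted p = 0.485). Atp6v0d1, Atp6v1e1 and Atp6v1f, further subunits, had log2 differences of -0.005, 0.009 and 0.05. Across the 17 genes the widest log2 gap between CIC KO B and CIC KO A was -0.58, in Atp6v1g2, against 1.29 in Slc17a6 and -1.92 in Slc17a7.

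Genes that supply glutamate or take it up numbered 12, of which 11 were tested and 0 called by limma. At an unadjusted p under 0.05 there was 1, against 10.2% of all tested rows. The knockout pair was above WT without overlap for 5 and below it for 2, where 22.8% and 15.7% of all rows were. Glul, the astrocytic glutamine synthetase, had 96.9 and 128 FPKM in WT, 144.7 in CIC KO A and 152 in CIC KO B, with the WT libraries themselves apart. Got2, the mitochondrial aspartate aminotransferase, had 96.2 and 95.8 FPKM in WT, 101.3 in CIC KO A and 122 in CIC KO B. Glud1, glutamate dehydrogenase, had 86.9 and 81.9 FPKM in WT, 93.6 in CIC KO A and 99.5 in CIC KO B. Slc1a3, the glial uptake transporter GLAST, had 75.9 and 77.3 FPKM in WT, 76.8 in CIC KO A and 61.0 in CIC KO B.

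Neurons known to host Slc17a8 were read from 7 genes. Slc6a4, the serotonin transporter, had 0.450 and 0.510 FPKM in WT, 0.387 in CIC KO A and 2.38 in CIC KO B. Slc5a7, the choline transporter of cholinergic neurons, had 0.648 and 0.541 FPKM in WT, 1.09 in CIC KO A and 1.26 in CIC KO B, an order of groups like that of Slc17a8. Cck, the cholecystokinin precursor, also made by cortical pyramidal cells, had 64.0 and 60.7 FPKM in WT, 38.4 in CIC KO A and 26.4 in CIC KO B. Cnr1, the cannabinoid receptor of Cck interneurons and other cells, had 61.2 and 56.7 FPKM in WT, 48.6 in CIC KO A and 36.1 in CIC KO B. Both knockout libraries were above WT for 2 of the 7 and below for 2, near the 22.8% and 15.7% of all rows. Of the 2 tested genes, Cck and Cnr1, limma called 0. Each had an unadjusted p under 0.05 with limma, as 10.2% of all tested rows did.

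Of 4 vesicular transporter genes of other transmitters, 3 had both knockout libraries above both WT libraries, where 22.8% of all rows did. Slc32a1, the GABA and glycine transporter VIAAT, had 24.5 and 23.2 FPKM in WT, 39.1 in CIC KO A and 27.1 in CIC KO B, so that CIC KO A was the higher one. Slc18a3, the acetylcholine transporter, had 0.738 and 0.753 FPKM in WT, 1.58 in CIC KO A and 2.37 in CIC KO B (log2 difference 0.76 ± 0.15, SE; limma's adjusted p = 0.417). Slc18a2, the monoamine transporter VMAT2, had 2.57 and 2.13 FPKM in WT, 2.88 in CIC KO A and 3.48 in CIC KO B. Slc18a1, its relative of endocrine cells, had 0.0747 and 0.0697 FPKM in WT, 0.0623 in CIC KO A and 0.225 in CIC KO B. Of the 4 genes 3 were tested and 0 called by limma, with 1 at an unadjusted p under 0.05 (10.2% of all tested rows).

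The rest of the SLC17 family, mostly renal, hepatic or lysosomal anion transporters, was low or level. Slc17a5, the lysosomal sialic acid transporter sialin, had 5.30 and 5.58 FPKM in WT, 5.66 in CIC KO A and 5.31 in CIC KO B, with a log2 difference of 0.01 ± 0.09 (SE). Slc17a9, which loads ATP into vesicles, had 0.0902 and 0.112 FPKM in WT, 0.225 in CIC KO A and 1.96 in CIC KO B, so that it too was highest in CIC KO B. Slc17a1 and Slc17a3 did not exceed 0.0289 FPKM, and Slc17a2 and Slc17a4 were listed at 0 in all 4 libraries.

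The rows most like each member over the 4 libraries were found by the root mean square distance of log2(FPKM + 1) from its WT mean. For Slc17a6 the nearest 5 were Mvp (distance 0.07), the neurofilament gene Nefh (0.07), Gm14378 (0.07), Slc30a3 (0.08) and Calca (0.08), which encodes the neuropeptide CGRP. All of these had a lower level than Slc17a6, and Nefh had 0.961 and 0.719 FPKM in WT, 0.905 in CIC KO A and 3.96 in CIC KO B. For Slc17a7 they were the muscarinic receptor gene Chrm1 (0.09), Uty (0.14), the guanine deaminase gene Gda (0.19), the monocarboxylate transporter gene Slc16a7 (0.22) and the dendritic gene Ddn (0.23). Chrm1 had 8.65 and 8.20 FPKM in WT, 7.33 in CIC KO A and 1.38 in CIC KO B. Uty, on the Y chromosome, had 3.47 and 3.59 FPKM in WT, 3.77 in CIC KO A and was listed at 0 in CIC KO B, so this library also differed from the others in a Y-linked gene. The likeness rests on 4 libraries and mainly on CIC KO B.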

How the data were processed

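The authors deposited 1 FPKM value per gene row and library, in 4 columns matched to the samples by title. Per the submitters' processing notes the genome build was mm9 and the tools included TopHat2 2.0.11 with Cufflinks 2.1.1, besides cutadapt and bcl2fastq 2.17, with no settings listed. How RNA was selected and whether libraries kept strand is not stated in the labels. The unit was read from those tools and the values. Total depth is unknown. Relative depth, from the most common ratio to WT A of values under 0.15 FPKM, was 1.21 in WT B, 1.22 in CIC KO A and 1.04 in CIC KO B.

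Groups came from the description field. From the deposited FPKM, log2(FPKM + 1) was fitted with limma 3.58.1 (R 4.3.3; lmFit, eBayes, two-sided, no covariate) over all genes with a mean of 1 FPKM or more, with Benjamini-Hochberg adjustment over all of them, 2 residual and 2.63 prior degrees of freedom. Rescaling, pseudocount, filter, trend, block, weights and left-out libraries were alternatives. The script was tested on simulated data. Single values had an exact permutation test. Coordinates of genes are mm9, counted from 1. Promoter stretches are GRCm38.p6, and no coordinate was converted.

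The members and 21 gene lists were chosen with earlier results of these data known. Named are the members, Cic, the other SLC17 genes and vesicular transporters, up to 4 genes of highest mean FPKM per list, and the 5 nearest rows for each tested member. Atp6v1g2, the unadjusted counts by list and sums without a list's most abundant gene were added after values were seen. The cerebellar and non-neuronal lists are given by their sums in place of their 4 genes, and some other genes that the rule names are not reported here. Barhl1 and Atoh1 are in 2 lists.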

Additional observations from a re-analysis of the deposited data

How the results depend on the processing

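The directions of Slc17a6, Slc17a7, Slc17a8 and of the Slc17a7 to Slc17a6 ratio held under every alternative run on each. This adds no support, because none of them had overlapping groups, so leaving out a library could not turn a sign. Filter, trend, block and weights left the estimates of Slc17a6 and Slc17a7 as they were. Leaving out 1 library moved the log2 difference of Slc17a6 between 0.156 and 1.45 and that of Slc17a7 between -2.09 and -0.175, with the only calls made without CIC KO replicate A. The ratio difference ran from -3.54 to -0.331. Slc17a8 gave 0.416 with a pseudocount of 0.1 and 0.052 with 5. Genes called over the whole table (3 higher, 3 lower) were 1 higher with a pseudocount of 0.1 or no filter, and 0 in either direction once genes at 0 in 1 library that reached 10 FPKM elsewhere were left out (limma, 1299 of 12690 at an unadjusted p under 0.05). Left-out libraries gave 1 to 2269 higher and 3 to 2036 lower, most without CIC KO replicate A. Without CIC KO replicate B they were 16 higher and 11 lower. With the replicate letter as a block the adjusted p was 0.44 for Slc17a6 and 0.451 for Slc17a7, with 4 genes higher and 3 lower. The labels do not say that letters mark pairs, and the WT and CIC KO deviations by letter had a correlation of -0.0135 over 12703 genes. Depth is unknown, which limits what can be said of Slc17a8, and 2 libraries a group cannot separate 1 unlike library from an effect of genotype.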

Other observations

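Of 7 GABAergic genes, all were above both WT libraries in CIC KO A, where 35.4% of all rows were, and 4 were lowest of the 4 libraries in CIC KO B, where 26.4% were. Gad1, a GABA-synthesising enzyme, had 52.8 and 48.7 FPKM in WT, 77.3 in CIC KO A and 70.3 in CIC KO B, whereas Lhx6, a factor of cortical interneurons, had 34.7 and 36.1 FPKM in WT, 45.6 in CIC KO A and 21.2 in CIC KO B. Dlx1, a factor of interneuron progenitors, had 29.7 and 28.3 FPKM in WT, 37.6 in CIC KO A and 21.0 in CIC KO B. Limma called 0 of the 7, with 3 at an unadjusted p under 0.05, against 10.2% of all tested rows. Striatal genes summed to 144.4 and 136.8 FPKM in WT, 143.6 in CIC KO A and 88.8 in CIC KO B, with 5 of 7 lowest in CIC KO B (26.4% of all rows). Ppp1r1b, the dopamine-regulated phosphatase inhibitor DARPP-32, had 38.2 and 39.1 FPKM in WT, 35.6 in CIC KO A and 12.7 in CIC KO B. The neuropeptide genes Tac1 (33.9 and 32.8, 48.7, 40.3 FPKM) and Penk (21.9 and 18.5, 14.8, 17.6 FPKM) did not have that order. Limma called 0 of the 7 striatal genes, with 2 at an unadjusted p under 0.05, against 10.2% of all tested rows. Cerebellar granule lineage genes summed to 31.3 and 36.4 FPKM in WT, 65.5 in CIC KO A and 145.5 in CIC KO B, with 0 of 6 tested called and 3 at an unadjusted p under 0.05.

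Limma called 0 markers of the other cell types that follow, given as sums. At an unadjusted p under 0.05 there were 3 of 7 astrocyte, 5 of 5 choroid plexus, 2 of 6 microglial and 2 of 5 meningeal genes tested and 0 in the oligodendrocyte, endothelial and blood lists, against 10.2% of all tested rows. All 5 choroid plexus genes tested were higher in both knockout libraries than in the WT pair, where 22.8% of all rows were. The remaining listed gene, Kl, was under the filter and overlapped, with 0.515 and 0.612 FPKM in WT, 0.648 in CIC KO A and 0.549 in CIC KO B. Astrocyte genes had 315 and 348 FPKM in WT, 455 in CIC KO A and 511 in CIC KO B, but without the most abundant gene the other 6 summed to 115 and 125 in WT, 142 in CIC KO A and 132 in CIC KO B. Oligodendrocyte lineage genes stayed between 97.4 and 106 FPKM. Choroid plexus genes had 150.0 and 488 FPKM in WT, 971 in CIC KO A and 1040 in CIC KO B, nearly all from 1 gene, and the other 5 summed to 5.79 and 12.6 in WT, 19.9 in CIC KO A and 34.6 in CIC KO B. Microglial genes had 43.1 and 51.4 FPKM in WT, 59.3 in CIC KO A and 83.3 in CIC KO B. Meningeal and fibroblast genes had 56.8 and 80.6 FPKM in WT, 94.4 in CIC KO A and 112 in CIC KO B. Endothelial genes stayed between 76.1 and 92.6 FPKM. Their part in the transporter values was not tested.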
